A study of Homo sapiens with 3 samples.

Results

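The genes examined encode the core RAS, RAF, MEK and ERK cascade, namely HRAS, NRAS, ARAF, BRAF, MAP2K1, MAP2K2 and MAPK3. They were chosen by gene symbol, and each of the 7 symbols matched 1 of the 57773 rows of the deposited table. Transcript levels were measured by RNA sequencing of total RNA in 3 lines of HaCaT, an immortalised human keratinocyte line. All 3 lines were first made to express the oncogenic mutant HRasG12V. The first line was then transduced with wild-type THG-1 and is called THG-1 (WT), the second with the serine-to-alanine form THG-1 (S264A), and the third with an empty vector. THG-1 is the protein encoded by TSC22D4. Each line was represented by 1 library, so no spread between cultures can be given and no p-value was computed. A HaCaT line without the HRAS mutant was not analysed here. The sources used here do not give the promoters that drive HRAS and THG-1, nor whether a line is a clone or a pool.

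In this cascade, RAS proteins are small GTPases at the inner face of the plasma membrane. They recruit RAF kinases when bound to GTP. RAF phosphorylates the kinases MEK1 and MEK2, which in turn phosphorylate ERK1 and ERK2, and active ERK phosphorylates substrates in the cytoplasm and the nucleus. In keratinocytes the cascade carries growth factor signals, and the HRAS mutant keeps RAS in its GTP-bound form. Transcript levels show how much of each messenger RNA was present and not the activity of the kinases.

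Levels are given as RPKM, a unit that scales reads to the length of the gene and the depth of the library. Depths recovered from the values were 12733479 reads for THG-1 (WT), 14022885 for THG-1 (S264A) and 32055052 for the empty vector. TSC22D4 was at 64.9 RPKM in THG-1 (WT), 51.1 RPKM in THG-1 (S264A) and 7.98 RPKM with empty vector. All 8 keratinocyte markers were at 17.4 RPKM or more in every library. Of the markers of other cell types, 0 of 5 fibroblast markers reached 1 RPKM in any library, and 1 each of the melanocyte (MITF), immune (CD68) and endothelial (VWF) markers did so in at least 1 library. The summed level of the 5 immune markers was 5.30 RPKM in THG-1 (WT), 1.97 RPKM in THG-1 (S264A) and 1.10 RPKM with empty vector. Most of it was CD68, at 5.21, 1.70 and 0.941 RPKM in these lines, and its part in the results was not tested.

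None of the 7 cascade genes differed between lines by 2-fold or by 1.5-fold on the scale of log2(RPKM + 1) used for such counts. In THG-1 (WT) against empty vector, 0 of 7 genes passed 2-fold, against 6.07% of the 11993 genes compared, and 0 passed 1.5-fold, against 17.7%. For THG-1 (S264A) against empty vector the counts were 0 and 0, with backgrounds of 3.81% and 12.5% of 12010 genes. For THG-1 (S264A) against THG-1 (WT) they were 0 and 0, with backgrounds of 3.78% and 13.8% of 12069 genes. With so few genes, counts of 0 are near these backgrounds. Smaller differences in THG-1 (WT) against empty vector ran in opposite directions within the RAS step and within the RAF step. MAPK3, like NRAS and BRAF, had its lowest level in THG-1 (WT).

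**Figure D1:**
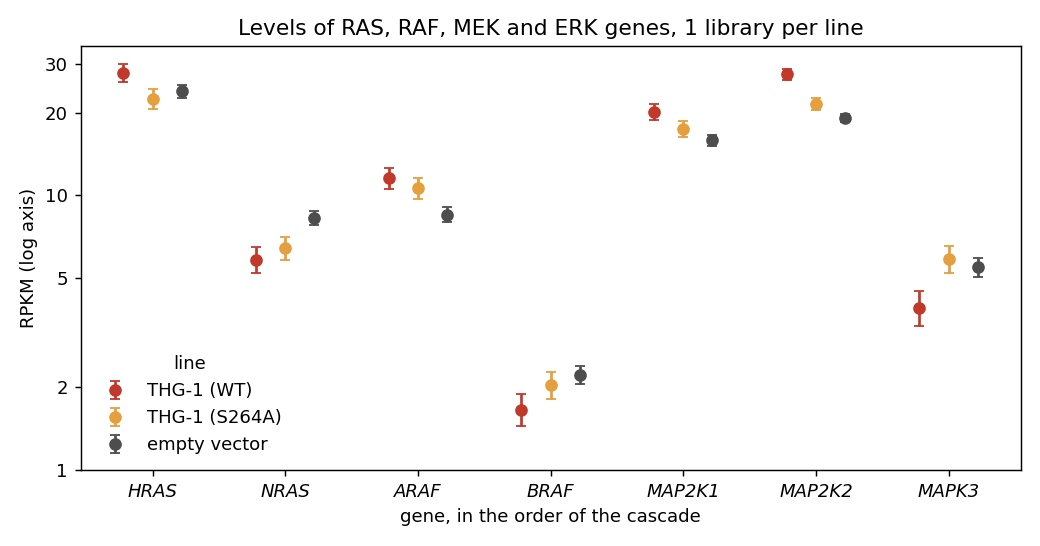
RPKM of each cascade gene (log axis) in THG-1 (WT), THG-1 (S264A) and empty vector, 1 library each, with 95% Poisson intervals that cover counting error only. HRAS and MAP2K2 lie between 19.1 and 27.8 RPKM and BRAF between 1.66 and 2.22 RPKM, farther apart than the lines are for any of these genes. Neighbouring genes can lie closer together than the lines do, such as HRAS and MAP2K2 in THG-1 (WT).

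HRAS, the RAS gene whose mutant form was introduced into all 3 lines, was at 27.8 RPKM in THG-1 (WT), 22.4 RPKM in THG-1 (S264A) and 23.9 RPKM with empty vector, from 657, 583 and 1421 reads. The table gives 1 value for the gene, so reads from the introduced HRAS and from the cell's own HRAS cannot be told apart. The THG-1 (WT) line was highest, with a ratio of 1.16 to the empty vector (95% counting interval 1.06 to 1.28), although with upper-quartile scaling its log2 difference turned to -0.042. THG-1 (S264A) had a ratio of 0.938 to the empty vector (0.850 to 1.03) and of 0.806 to THG-1 (WT) (0.720 to 0.902).

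NRAS, a close RAS paralog that acts on the same RAF kinases, was at 5.81 RPKM in THG-1 (WT), 6.41 RPKM in THG-1 (S264A) and 8.27 RPKM with empty vector. Both THG-1 lines were thus below the empty vector. The ratio was 0.702 (0.619 to 0.794) for THG-1 (WT) and 0.775 (0.690 to 0.869) for THG-1 (S264A). Between the THG-1 forms the ratio of S264A to WT was 1.10, with an interval of 0.952 to 1.28 that includes 1.

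The level of HRAS over that of NRAS within a library is not changed by a scaling that multiplies all genes of the library by 1 factor. This ratio of RPKM was 4.79 in THG-1 (WT) (4.19 to 5.49), 3.50 in THG-1 (S264A) (3.07 to 3.98) and 2.89 with empty vector (2.67 to 3.12). It was 1.66 times as large in THG-1 (WT) as with empty vector (1.42 to 1.93), 1.21 times as large in THG-1 (S264A) (1.04 to 1.40), and 0.730 times as large in THG-1 (S264A) as in THG-1 (WT) (0.607 to 0.877). HRAS was therefore the more abundant of both RAS messages in every line, by the widest margin in THG-1 (WT). In the authors' quantile-normalised columns, which do not scale by 1 factor, the ratio was 4.56 in THG-1 (WT), 3.59 in THG-1 (S264A) and 2.97 with empty vector. Divided by the length of the principal GENCODE transcript in place of all exons, it was 7.72, 5.63 and 4.65 in these lines, a change of length that leaves comparisons between lines as they are.

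Both RAS genes encode closely related proteins with different bases, which bears on whether reads can be assigned to one of them and on base composition as described further on. Over the coding sequence of GENCODE release 29, which has 567 bases in each gene, 73.0% of bases are identical, and the longest run shared anywhere between both is 14 bases. Of the codons, 81.5% of those of HRAS and 46.0% of those of NRAS end in G or C.

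ARAF and BRAF encode RAF kinases that RAS recruits and that phosphorylate MEK, BRAF having the higher basal kinase activity. ARAF was at 11.5 RPKM in THG-1 (WT), 10.6 RPKM in THG-1 (S264A) and 8.51 RPKM with empty vector. Both THG-1 lines were above the empty vector, with ratios of 1.36 (1.22 to 1.51) for THG-1 (WT) and 1.25 (1.12 to 1.39) for THG-1 (S264A). The ratio of S264A to WT was 0.919 (0.812 to 1.04).

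BRAF was at 1.66 RPKM in THG-1 (WT), 2.04 RPKM in THG-1 (S264A) and 2.22 RPKM with empty vector, the lowest level of the 7 genes in every library. The order of the lines was the reverse of that of ARAF. The ratio to the empty vector was 0.746 (0.639 to 0.869) for THG-1 (WT) and 0.919 (0.800 to 1.05) for THG-1 (S264A), and the ratio of S264A to WT was 1.23 (1.03 to 1.47). The BRAF values gave whole reads at a length of 10380 bases, which was used, and at its multiples, so its reads may be understated and its intervals too wide.

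Within a library, the ratio of ARAF to BRAF was 6.97 in THG-1 (WT) (5.94 to 8.20), 5.20 in THG-1 (S264A) (4.50 to 6.01) and 3.83 with empty vector (3.48 to 4.22). It was 1.82 times as large in THG-1 (WT) as with empty vector (1.51 to 2.19) and 1.36 times as large in THG-1 (S264A) (1.14 to 1.61). It was 0.746 times as large in THG-1 (S264A) as in THG-1 (WT) (0.603 to 0.923). The lines thus had the same order as for HRAS over NRAS.

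**Figure D2:**
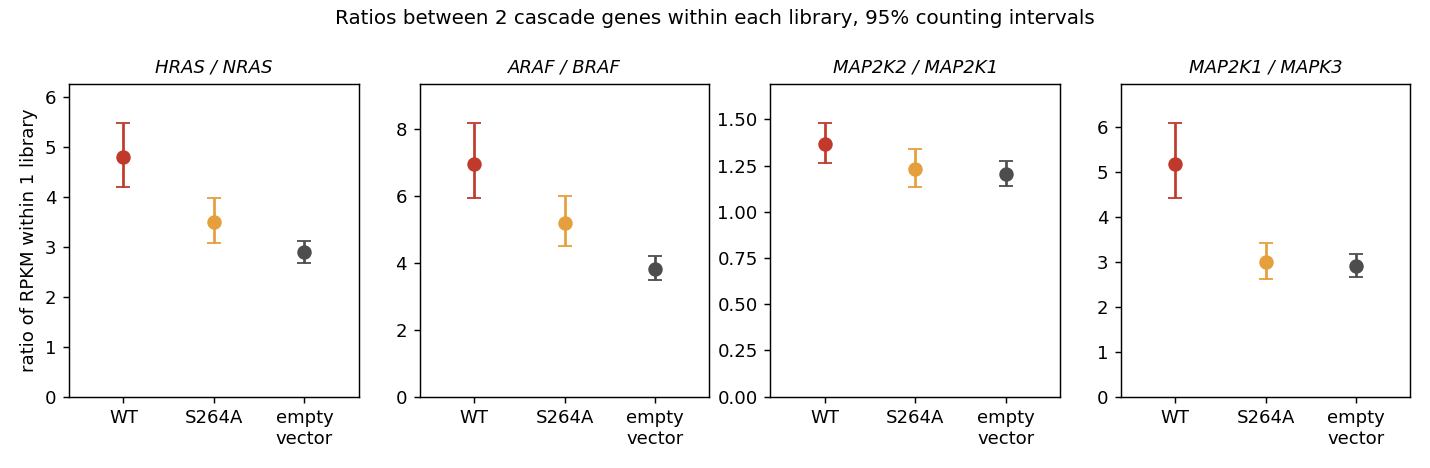
Ratio of RPKM between 2 cascade genes within each library, with 95% counting intervals, for THG-1 (WT), THG-1 (S264A) and empty vector, 1 library each. HRAS over NRAS (4.79, 3.50 and 2.89) and ARAF over BRAF (6.97, 5.20 and 3.83) decrease in this order of the lines, whereas MAP2K1 over MAPK3 stands apart in THG-1 (WT) alone (5.16, 2.98 and 2.90).

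MAP2K1 and MAP2K2 encode MEK1 and MEK2, the dual-specificity kinases that activate ERK. MAP2K1 was at 20.1 RPKM in THG-1 (WT), 17.5 RPKM in THG-1 (S264A) and 15.9 RPKM with empty vector. MAP2K2 was at 27.6, 21.5 and 19.1 RPKM in THG-1 (WT), THG-1 (S264A) and empty vector. In RPKM as deposited, both MEK genes were highest in THG-1 (WT) and lowest with empty vector. Scaled to an equal upper quartile, THG-1 (S264A) against empty vector turned to log2 differences of -0.064 for MAP2K1 and -0.033 for MAP2K2. Against the empty vector, MAP2K1 had a ratio of 1.27 (1.17 to 1.37) in THG-1 (WT) and of 1.10 (1.02 to 1.19) in THG-1 (S264A). MAP2K2 had a ratio of 1.44 (1.36 to 1.53) in THG-1 (WT), the highest of the 7 genes in that comparison, and of 1.13 (1.06 to 1.20) in THG-1 (S264A). Between the THG-1 forms, the ratio of S264A to WT was 0.868 (0.792 to 0.951) for MAP2K1 and 0.781 (0.729 to 0.835) for MAP2K2.

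The balance of both MEK genes differed less between THG-1 (WT) and empty vector than that of the RAS or RAF genes. MAP2K2 over MAP2K1 was 1.37 in THG-1 (WT) (1.27 to 1.48), 1.23 in THG-1 (S264A) (1.14 to 1.34) and 1.20 with empty vector (1.14 to 1.27). It was 1.14 times as large in THG-1 (WT) as with empty vector (1.03 to 1.25), and 1.02 times as large in THG-1 (S264A) as with empty vector (0.927 to 1.13). With principal-transcript lengths the level of MAP2K2 over MAP2K1 was 3.75 in THG-1 (WT), 3.38 in THG-1 (S264A) and 3.30 with empty vector, so the size of the ratio rests on the length used.

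MAPK3, which encodes ERK1, was at 3.90 RPKM in THG-1 (WT), 5.85 RPKM in THG-1 (S264A) and 5.47 RPKM with empty vector, from 182, 301 and 643 reads. By these values THG-1 (WT) stood apart from the other lines. Its ratio to the empty vector was 0.713 (0.601 to 0.841), whereas that of THG-1 (S264A) was 1.07 (0.930 to 1.23), and with upper-quartile scaling its log2 difference turned to -0.093. The ratio of S264A to WT was 1.5 (1.25 to 1.82), the largest ratio of RPKM of any of the 7 genes in the comparisons made. It just reached 1.5-fold without a pseudocount and did not do so on the RPKM + 1 scale.

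MEK genes and MAPK3 thus differed in opposite directions in THG-1 (WT). The level of MAP2K1 over MAPK3 was 5.16 in THG-1 (WT) (4.40 to 6.08), 2.98 in THG-1 (S264A) (2.62 to 3.41) and 2.90 with empty vector (2.65 to 3.18). It was 1.78 times as large in THG-1 (WT) as with empty vector (1.48 to 2.14), and 1.03 times as large in THG-1 (S264A) as with empty vector (0.878 to 1.20). With principal-transcript lengths the ratio was 2.89 in THG-1 (WT), 1.67 in THG-1 (S264A) and 1.62 with empty vector. With MAP2K2 in place of MAP2K1 the corresponding factors were 2.02 (1.70 to 2.41) and 1.05 (0.906 to 1.22).

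**Figure D3:**
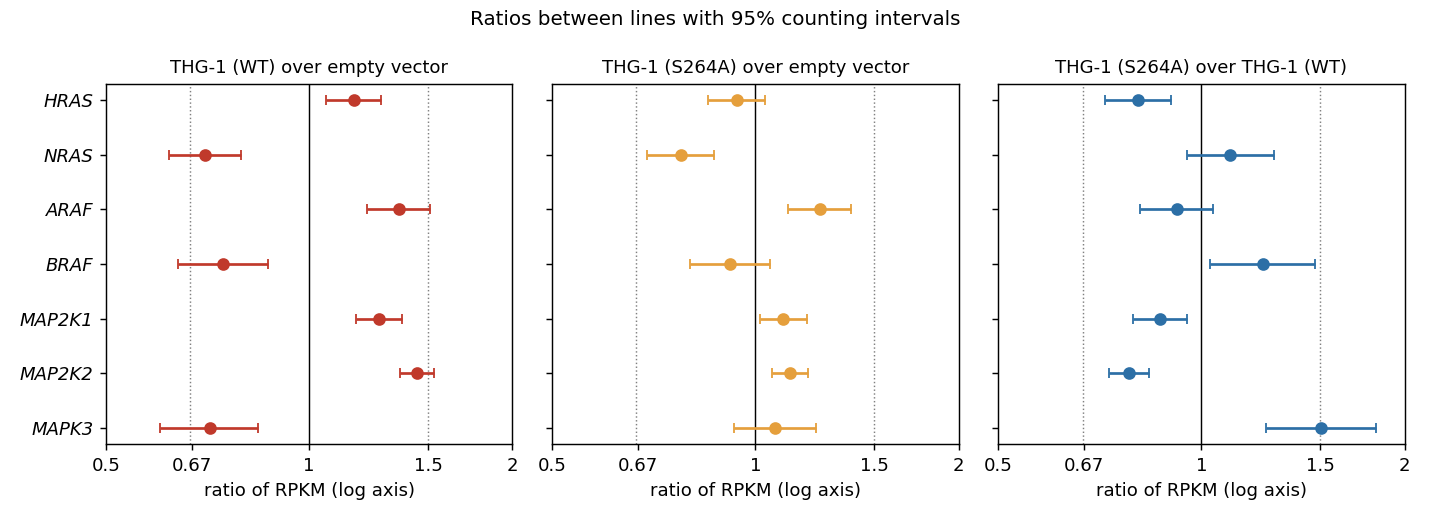
Ratio of RPKM between lines for each cascade gene (log axis) with 95% counting intervals, in 3 panels with the line named first over the line named second; dotted lines mark 1.5-fold. In THG-1 (WT) over empty vector HRAS, ARAF, MAP2K1 and MAP2K2 lie above 1 and NRAS, BRAF and MAPK3 below 1, and in THG-1 (S264A) over THG-1 (WT) MAPK3 reaches 1.5.

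The order of levels was the same in every library, with HRAS first, followed by MAP2K2, MAP2K1, ARAF, NRAS, MAPK3 and BRAF. Neighbours whose counting interval included equality were HRAS and MAP2K2 in THG-1 (WT) (ratio 1.01, 0.923 to 1.10) and in THG-1 (S264A) (1.04, 0.947 to 1.15), NRAS and MAPK3 in THG-1 (S264A) (1.10, 0.941 to 1.28), and ARAF and NRAS with empty vector (1.03, 0.943 to 1.12). HRAS was above 91.4%, 90.0% and 91.0% of the genes at 1 RPKM or more in THG-1 (WT), THG-1 (S264A) and empty vector. BRAF was above 13.5%, 19.4% and 21.3% of them. The order between genes depends on the length by which reads are divided. With the principal transcript of GENCODE in place of all exons, the order in every library was MAP2K2, HRAS, MAP2K1, ARAF, MAPK3, NRAS and BRAF. In this second order the last place of BRAF rests on reads recovered at a length of 10380 bases. A length of 20760 bases also gave whole reads and would give more of them, so this place is uncertain.

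The median log2 difference of the 7 genes on the RPKM + 1 scale was 0.21 in THG-1 (WT) against empty vector, beside -0.01 over all genes compared. It was 0.08 in THG-1 (S264A) against empty vector, beside 0.02 over all genes, and -0.11 in THG-1 (S264A) against THG-1 (WT), beside 0.02. MAP2K2, at 0.51 in THG-1 (WT) against empty vector, was above 86.6% of genes, and NRAS, at -0.45, above 12.1% of them. MAPK3, at 0.48 in THG-1 (S264A) against THG-1 (WT), was above 90.5% of genes. The comparisons of both THG-1 lines with the empty vector share that library. Scaling the libraries to an equal upper quartile moved the median of all genes to -0.22 in THG-1 (WT) and -0.16 in THG-1 (S264A) against empty vector, and scaling to an equal sum moved it to -0.14 and -0.02.

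Base composition varied with these differences. Across the 10701 genes with a known GC content compared between THG-1 (WT) and empty vector, the median log2 difference ran from -0.25 in the lowest to 0.21 in the highest of 10 equal groups of genes ordered by GC content. The Spearman correlation of GC content with the log2 difference was 0.37 across genes, which are not independent replicates and share both libraries. The medians ran from -0.11 to 0.11 in THG-1 (S264A) against empty vector, and from 0.14 to -0.10 in THG-1 (S264A) against THG-1 (WT). Among the cascade genes the longest transcripts of NRAS and BRAF have a GC content of 38.4% and 40.0%, that of MAP2K1 50.4%, and those of ARAF, MAP2K2, MAPK3 and HRAS 58.9%, 60.9%, 61.4% and 65.8%. In THG-1 (WT) against empty vector, the AT-rich NRAS and BRAF lay below 0 and the GC-rich HRAS, ARAF and MAP2K2 above it, in the direction of the trend of all genes. MAPK3, which is GC-rich, lay on the other side of 0 from that trend.

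**Figure D4:**
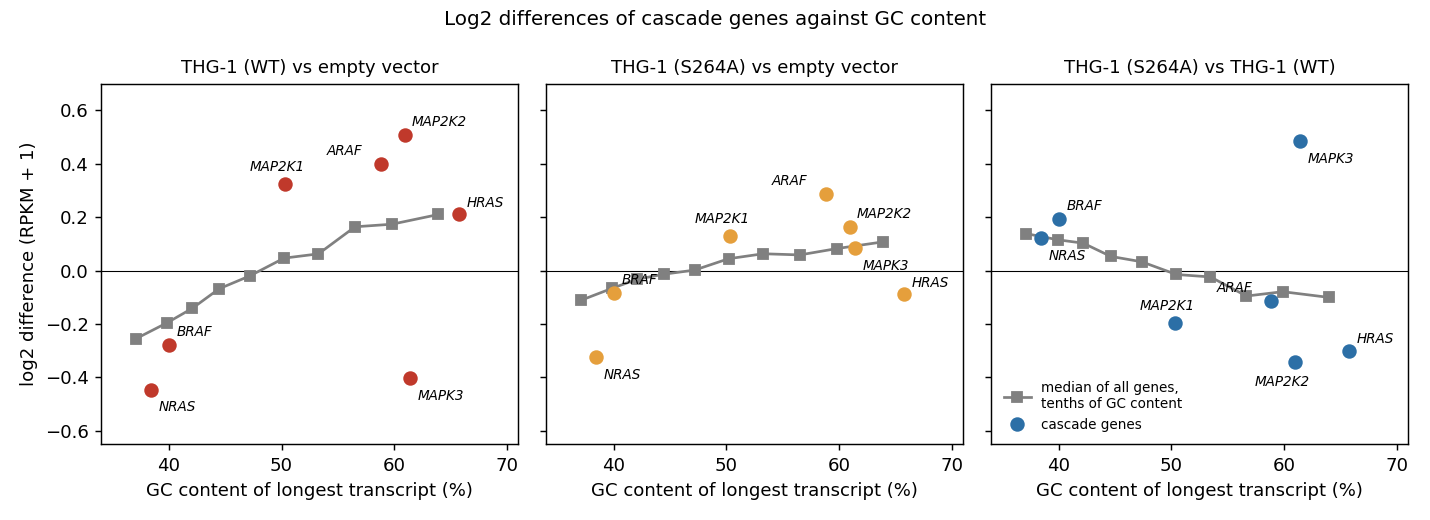
Log2 difference on the RPKM + 1 scale against the GC content of the longest transcript (percent) for each cascade gene (circles) and for the median of all genes in each of 10 groups by GC content (grey squares), in 3 panels by comparison. In THG-1 (WT) against empty vector the grey medians run from -0.25 to 0.21, HRAS lies on them, and MAPK3 lies 0.58 below the median of its group.

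With the median of genes of like GC content taken off, a setting added after the data were seen, HRAS in THG-1 (WT) against empty vector was at 0.00067 on the log2 scale, compared with 0.21 before. NRAS was at -0.19 (-0.45 before), BRAF at -0.08 (-0.28), ARAF at 0.23 (0.40) and MAP2K2 at 0.33 (0.51). MAP2K1 moved least, to 0.28 (0.32), and MAPK3 moved away from 0, to -0.58 (-0.40). In THG-1 (S264A) against THG-1 (WT), MAPK3 was likewise farther from 0, at 0.56 (0.48 before), and NRAS changed sign, to -0.02 (0.12). For the balance of HRAS over NRAS in THG-1 (WT) against empty vector, the difference of 0.66 on this scale compared with 0.46 between the medians of their groups of all genes, which left 0.19. For ARAF over BRAF, 0.68 compared with 0.37 and left 0.31. What was left in THG-1 (S264A) against empty vector was 0.02 for HRAS over NRAS and 0.22 for ARAF over BRAF. For MAP2K1 over MAPK3 in THG-1 (WT) against empty vector, the difference of 0.73 was 0.85 after centring. The part of base composition in these differences was not tested otherwise.

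Exons shared with other genes could add reads to some of the 7 rows, since the sources used here do not say whether the libraries kept strand. In GENCODE release 29, 11.5% of the exon bases of MAP2K1 lie opposite an antisense gene and 5.75% opposite SNAPC5, and 5.29% of those of BRAF lie opposite NDUFB2, and 0.651% of those of ARAF opposite SYN1. SNAPC5 was at 3.38 RPKM in THG-1 (WT), 5.03 RPKM in THG-1 (S264A) and 4.92 RPKM with empty vector, and for the antisense gene no level is given here. NDUFB2 was at 2.68, 2.58 and 3.18 RPKM in THG-1 (WT), THG-1 (S264A) and empty vector. HRAS, NRAS, MAP2K2 and MAPK3 shared no exon bases with another gene there. The part of such reads in the levels was not tested.

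Around the cascade, 9 lists of pathway genes, chosen with earlier results of these data known, were examined. They held 98 genes in all, of which 85 could be compared between THG-1 (WT) and empty vector. Of these, 4 were at least 2-fold higher, beside 4.53% of all genes, and 2 at least 2-fold lower, beside 1.54%, and their median log2 difference was 0.04. For THG-1 (S264A) against empty vector, 3 of 84 were at least 2-fold higher, beside 2.99%, and 0 lower, beside 0.824%. Between the THG-1 forms, S264A against WT, 0 of 83 were at least 2-fold higher, beside 1.55%, and 3 lower, beside 2.23%. No gene passed 2-fold in any of these comparisons among the 5 adaptors and exchange factors compared (such as GRB2 and SOS1), which activate RAS, the 8 GTPase-activating proteins compared (such as NF1 and RASA1), which switch it off, the 11 genes of RAS lipid processing, the 11 scaffolds and RAF regulators and the 8 RAS relatives. Beside 6.07%, 3.81% and 3.78% of all genes, counts of 0 in lists of this size are near the background. RASA4, a GTPase-activating protein gene chosen after its values were seen, was at 3.72 RPKM in THG-1 (S264A) and 1.47 RPKM in THG-1 (WT), a ratio of 2.53 that came to 0.93 on the log2(RPKM + 1) scale.

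**Figure D5:**
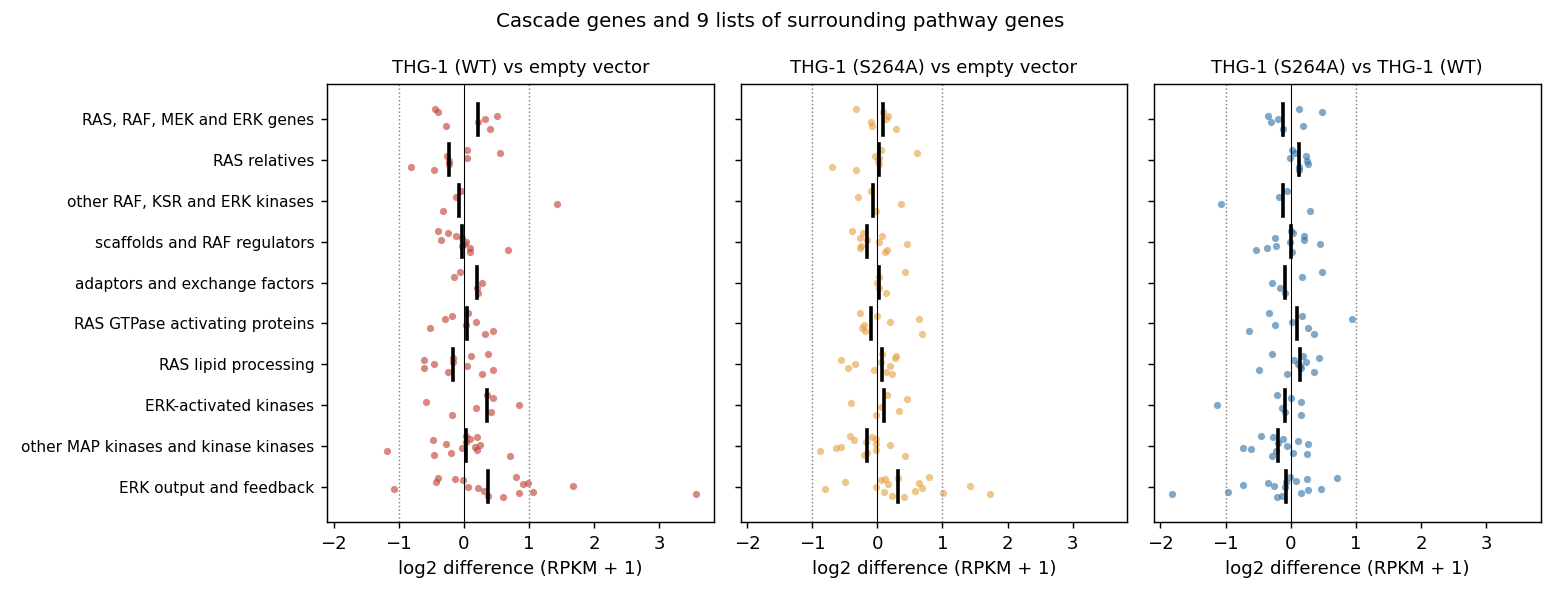
Log2 difference on the RPKM + 1 scale of each gene compared (dots) and the median of each list (black bars), for the 7 cascade genes in the top row and 9 lists of surrounding pathway genes below, in 3 panels by comparison; dotted lines mark 2-fold. The cascade genes lie between -0.45 and 0.51, and the dots beyond 2-fold belong to MAP3K8, RPS6KA2, MAP2K6 and genes of ERK output.

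In the kinase lists, 3 genes passed 2-fold in at least 1 comparison. In THG-1 (WT) against empty vector, MAP3K8 (1 of 4 other RAF, KSR and ERK kinases compared) was higher, beside 4.53% of all genes. MAP2K6 (1 of 14 other MAP kinases and kinase kinases) was lower, beside 1.54%. In THG-1 (S264A) against THG-1 (WT), MAP3K8 (1 of 4) and RPS6KA2 (1 of 7 ERK-activated kinases) were lower, beside 2.23%. In THG-1 (S264A) against empty vector 0 passed, beside 3.81%. MAP3K8, which encodes a MEK kinase outside the RAF family, was at 5.98 RPKM in THG-1 (WT), 2.34 RPKM in THG-1 (S264A) and 1.59 RPKM with empty vector, from 274, 118 and 184 reads. Its ratio to the empty vector was 3.75 (3.10 to 4.54) in THG-1 (WT) and 1.47 (1.15 to 1.86) in THG-1 (S264A). RPS6KA2, which encodes an ERK-activated ribosomal S6 kinase, was at 2.23, 0.476 and 0.791 RPKM in THG-1 (WT), THG-1 (S264A) and empty vector, and was 4.69-fold lower (3.48 to 6.41) in THG-1 (S264A) than in THG-1 (WT). MAP2K6, a MAP kinase kinase that activates p38 and not ERK, was at 0.0385 RPKM in THG-1 (WT), 0.279 RPKM in THG-1 (S264A) and 1.36 RPKM with empty vector. It had 3, 24 and 267 reads, so the ratio of THG-1 (WT) to empty vector was 0.0283 with an interval of 0.0058 to 0.0836.

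In the list of ERK output and feedback genes, 3 of 17 were at least 2-fold higher, beside 4.53% of all genes, and 1 lower, beside 1.54%, in THG-1 (WT) against empty vector (median 0.37). In THG-1 (S264A) against empty vector 3 of 17 were higher, beside 2.99%, and 0 lower, beside 0.824% (median 0.32). Of 16 genes compared between S264A and WT, 0 were higher, beside 1.55%, and 1, DUSP5, was lower, beside 2.23% (median -0.08). The list was chosen with earlier results of these data known, so its shares beside those of all genes are not an independent comparison. FOSL1, which encodes an AP-1 subunit, was at 68.4 RPKM in THG-1 (WT), 57.0 RPKM in THG-1 (S264A) and 20.6 RPKM with empty vector. DUSP6, which encodes a cytoplasmic ERK phosphatase, was at 25.3, 28.4 and 13.6 RPKM in THG-1 (WT), THG-1 (S264A) and empty vector, with a ratio of S264A to WT of 1.12 (1.04 to 1.20). It was 2-fold higher than with empty vector in THG-1 (S264A) on the RPKM + 1 scale, and 0.85 higher on the log2 scale in THG-1 (WT). DUSP5, which encodes a nuclear ERK phosphatase, was at 23.4, 5.86 and 1.06 RPKM in THG-1 (WT), THG-1 (S264A) and empty vector. The transcription factor gene EGR1 was at 4.78, 1.98 and 1.77 RPKM in these lines, and the ephrin receptor gene EPHA4, the member that was lower, at 0.0936, 0.312 and 1.29 RPKM.

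The profiles of the 7 genes over the 3 libraries were compared by the distance between centred log2(RPKM + 1) values. The closest members were ARAF and MAP2K1, at a distance of 0.11, and the farthest MAP2K2 and MAPK3, at 0.71. The genes most like HRAS were PWP1, RBM34 and HPS6, and 336 of the 4844 genes at 5 RPKM or more in all libraries lay within 0.1 of it. Those most like MAPK3 were SKA3, HERPUD2 and RARG, with 91 of 4845 genes within 0.1. For NRAS, ARAF, BRAF, MAP2K1 and MAP2K2 between 168 and 378 genes lay within that distance. With 3 libraries such likeness is common.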

How the data were processed

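Total RNA of 3 HaCaT-derived lines was sequenced with Illumina NextSeq500, per the labels' protocols. The authors deposited RPKM per gene for each library, per the file headers, and a further column of RPKM that was found to be quantile-normalised across the libraries. The build was hg19, per the submitters' processing notes. The sources used here do not give aligner, counter, annotation or strandedness. Depths were recovered from genes with 1 exon, and reads from the gene lengths at which all libraries gave whole reads within 0.001 reads. The procedure was tested on simulated data. Ratios carry exact Clopper-Pearson 95% intervals on these reads, and ratios of ratios 95% intervals on the log scale. Reads are not independent molecules, so intervals cover counting error only. Log2 differences used a pseudocount of 1 RPKM and genes that reached 1 RPKM in either library compared. For symbols with several rows, the row with the highest mean was used. Lengths, GC content and coding sequences came from GENCODE release 29, whose build differs from that of the files, so no coordinates are printed. Base sequences of the genes are not reported here. The cascade genes and the lists were chosen with earlier results of these data known. Named genes were the 7 members, list genes past 2-fold and the 3 nearest profiles of a member. Others were named as examples of a list, as markers or checks of the labels, or as genes with shared exons. RASA4 was named after its values were seen. Computations used Python 3.11.15, numpy 2.4.6, pandas 2.3.3 and scipy 1.17.1.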

Additional observations from a re-analysis of the deposited data

How the results depend on the processing

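Counts of cascade genes past 2-fold were 0 under every pseudocount, filter, scaling and column tried, and those past 1.5-fold were 0 except in THG-1 (WT) against empty vector with upper-quartile scaling, where 2 genes, NRAS and MAPK3, passed. With that scaling the median log2 difference of the cascade genes turned to -0.042 in THG-1 (WT) and -0.093 in THG-1 (S264A) against empty vector. It scales all genes of a library alike, and moved the median of all genes to -0.22 and -0.16. Relative to the median of all genes, the differences of the cascade genes kept their sign in 21 of 21 cases under 4 alternative scalings. These include the quantile-normalised columns but not the centring on GC content. All but the quantile-normalised columns scale by 1 factor per library, which nearly cancels when the median of all genes is taken off. The signs under those scalings were thus nearly fixed in advance. In THG-1 (WT) against empty vector the median of the cascade genes was 0.053 in the authors' quantile-normalised columns and 0.00067 when centred on genes of like GC content. Pathway genes past 2-fold in THG-1 (WT) against empty vector numbered 6, against 9 with a pseudocount of 0.1, 2 with a pseudocount of 5 and 3 with a filter at 5 RPKM. In THG-1 (S264A) against empty vector they numbered 3, against 7 with a pseudocount of 0.1 and 1 with a pseudocount of 5. In THG-1 (S264A) against THG-1 (WT) they likewise numbered 3, against 7 and 1 under these pseudocounts. Ratios between genes of 1 library are not changed by the scalings that use 1 factor per library, but are by the quantile-normalised columns. No paired analysis was possible because each line has 1 library, and for the same reason no replicate could be left out. The depth recovered for the empty-vector library was 2.52 times that of THG-1 (WT), so intervals are set mainly by the THG-1 libraries.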
